A study of Mus musculus with 18 samples.

Results

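The enzymes and the chaperone that fold and crosslink collagen were followed at the transcript level in HL-1 cells, an immortalised mouse atrial cardiomyocyte line. The set held 10 genes of the 29112 in the count table, found by symbol: the lysyl oxidases Lox, Loxl1, Loxl2, Loxl3 and Loxl4, the lysyl hydroxylases Plod1, Plod2 and Plod3, the prolyl hydroxylase subunit P4ha1 and the chaperone Serpinh1. The set was selected on measured values, namely the lower Loxl4 and the higher Serpinh1 in high glucose than in vehicle, so that comparison is given here as a description without a test. The study set out to add or block miR-200a-3p in these cells and sequenced their RNA in 18 libraries, 3 in each of 6 groups. Untransfected cells received vehicle or high glucose. The other 4 groups were all kept in high glucose and received a miR-200a-3p mimic (a synthetic duplex that adds microRNA activity), the negative control of the mimic, a miR-200a-3p inhibitor, or the negative control of the inhibitor, each with the HiPerFect reagent and a harvest 48 h later. The cells were bought as 1 commercial line, and the sources used here give neither the glucose concentration nor the time in glucose. Nothing in the labels tells whether replicates were grown as separate cultures, so the p-values reflect the spread among these libraries, which could be technical.

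Collagen chains are modified in the endoplasmic reticulum before they fold into a triple helix. Prolyl hydroxylases add the hydroxyl groups that keep the helix stable at body temperature, lysyl hydroxylases prepare lysines for glycosylation and for crosslinking, and the chaperone encoded by Serpinh1, known as HSP47, binds the finished helix and escorts it toward the Golgi. After secretion, the copper-dependent lysyl oxidases convert lysines and hydroxylysines to aldehydes that join neighbouring molecules covalently. In the heart these steps set how stiff and how lasting fibrotic tissue becomes, and they are mostly the work of fibroblasts, though cardiomyocytes make basement membrane collagen as well.

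All 10 genes passed the low-count filter, with 184 to 27444 reads per gene and library in libraries of 33655916 to 37928790 reads. The libraries are described in 3 sets: the untransfected cells, the inhibitor with its control (the inhibitor pair) and the mimic with its control (the mimic pair). Of 14 cardiomyocyte markers, 2 (Tnnt2 and Gata4) exceeded 1 CPM (reads scaled to library size) in every library. The atrial marker Nppa gave 1 read in high glucose, 1 with the inhibitor and 0 elsewhere, which does not match the label of an atrial cardiomyocyte line. Of 10 fibroblast markers, 6 exceeded 1 CPM in every library, and the endothelial markers together reached at most 6.69 CPM in any library. Mimic replicate 2 stood apart: its 14 macrophage markers summed to 1619.7 CPM, against 58.5 to 59.1 CPM in the other mimic libraries and 42.6 to 76.5 CPM in the other groups, and 13 of the 14 were highest in it. Results that use the mimic group are therefore given with and without that library.

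The microRNA and its sequence matches in the transcripts are shown first, since the mimic is meant to add this microRNA and the inhibitor to block it. A microRNA pairs mainly through its seed, bases 2 to 8, printed here in capitals within the mature RefSeq sequences (build GRCm38.p6), 5′ to 3′. miR-200a-3p shares its seed with miR-141-3p, while miR-200b-3p, of the same family, has another base in the seed.
mmu-miR-200a-3p: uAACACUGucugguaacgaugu
mmu-miR-141-3p: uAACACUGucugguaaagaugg
mmu-miR-200b-3p: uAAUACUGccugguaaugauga
The words searched in the annotated 3′ UTRs (GENCODE M39, GRCm39, sense strand) were CAGTGTTA (8mer), CAGTGTT (7mer-m8) and AGTGTTA (7mer-A1). At least 1 of them occurred in Lox, Plod1 and Serpinh1, which is 3 of 10 genes (30.0%), against 27.3% of 13019 tested genes with an annotated UTR. The Plod1 word was the only 8mer, at chr4:147993181-147993188 on the minus strand, in exon 19 of 19 and at base 1991 of a UTR of 3605 bases. Serpinh1 held a 7mer-m8 at chr7:98995037-98995043 on the minus strand, in exon 5 of 5 and at base 287 of 1110. Lox held a 7mer-m8 too, which is not printed. The Plod1 and Serpinh1 words are printed with their flanks, the matching word in capitals.
Plod1 site: tccctagtgctCAGTGTTAcaggcttgctt
Serpinh1 site: caacagtcaatCAGTGTTcatatttatgg
No such word was found in the UTRs of Loxl1, Loxl2, Loxl3, Loxl4, Plod2, Plod3 or P4ha1. A match is a description of letters and was not tested as a functional site.

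Between genes, levels were compared as FPKM, which the authors scaled to transcript length. Serpinh1 was the highest of the 10 in every group, from 143 ± 4.40 FPKM in vehicle to 304 ± 6.79 FPKM in the inhibitor control (SD, n = 3). P4ha1 came second in every group, from 43.2 ± 0.674 FPKM in the mimic control to 96.7 ± 1.21 FPKM in vehicle. Next came Loxl1 in the untransfected groups and in the mimic pair, and Lox in the inhibitor pair. Loxl4 was the lowest in vehicle (5.26 ± 0.303 FPKM) and in high glucose (1.32 ± 0.0611 FPKM), and Loxl3 was the lowest in all 4 transfected groups, with means of 1.58 to 2.91 FPKM. Some neighbours in this order overlapped: Plod3 with Lox in vehicle and in high glucose, Plod1 with Loxl3 in vehicle and with Plod2 in high glucose, Plod1 with Plod3 and Loxl2 with Loxl4 in the inhibitor pair, Plod2 with Loxl1 in the inhibitor control, and Lox, Plod2 and Plod1 in the mimic group. In the mimic control no neighbours overlapped. All further levels of a gene are CPM scaled by TMM (a normalisation for library composition) and compare that gene between libraries only.

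**Figure D1:**
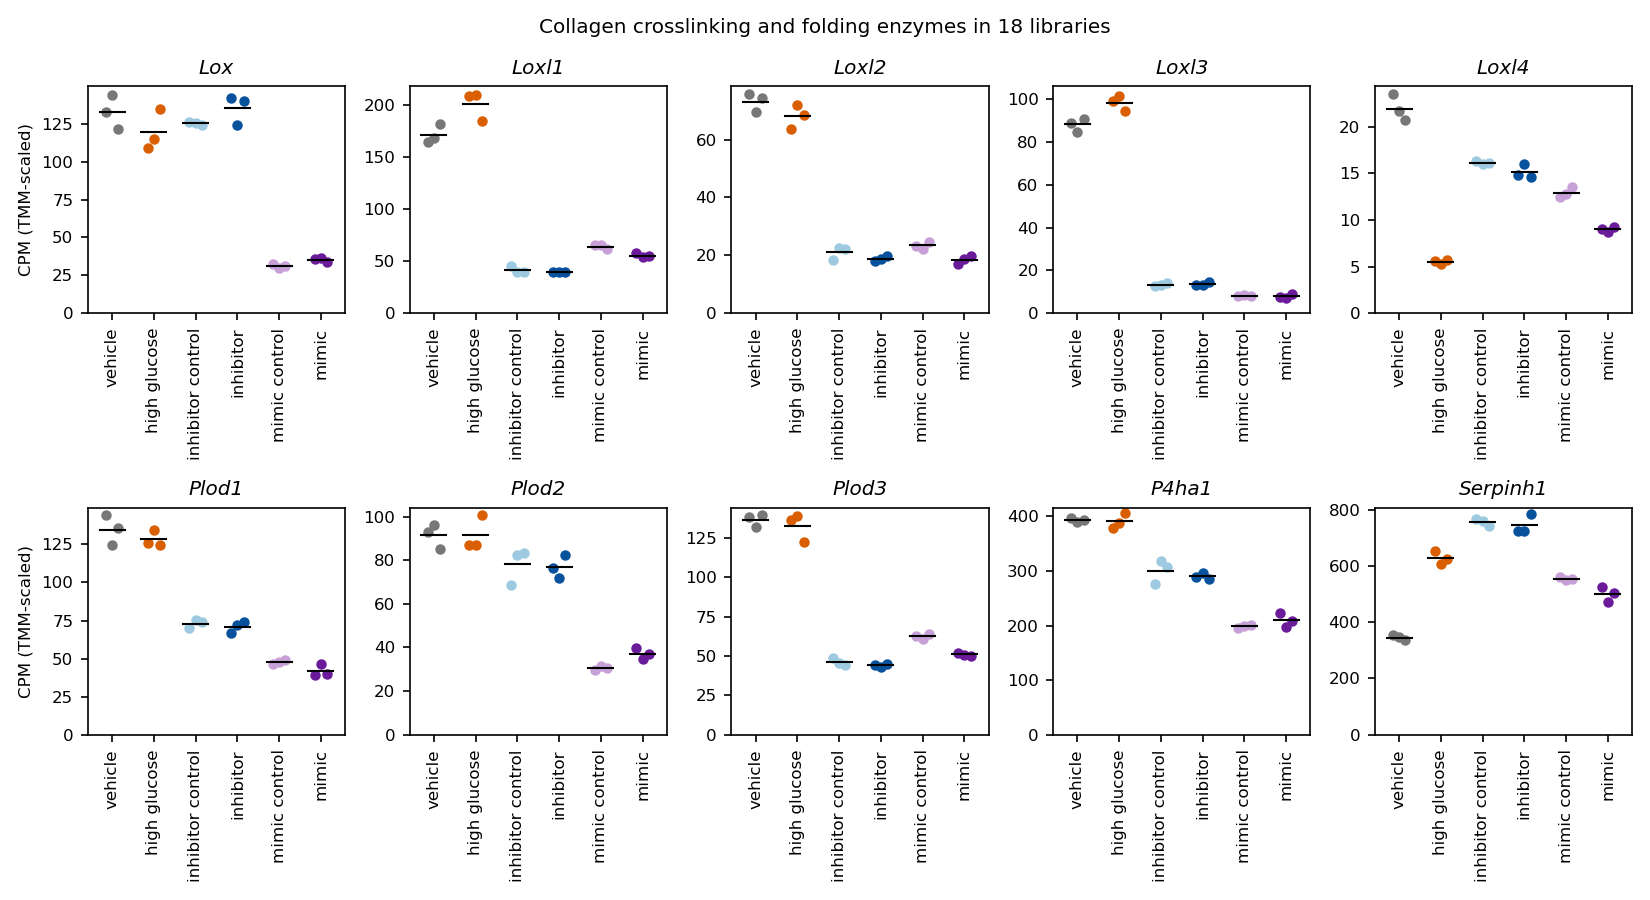
Level of each gene (CPM, TMM-scaled, axes from 0) in the 18 libraries, by group; points are libraries and lines are group means. Loxl4 sits lowest in high glucose (5.32 to 5.66 CPM) and Serpinh1 lowest in vehicle (336 to 354 CPM). Loxl1, Loxl2, Loxl3, Plod1, Plod2, Plod3 and P4ha1 are lower in all transfected than in the untransfected libraries.

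High glucose was set beside vehicle to describe the genes in cells without a miR-200a-3p reagent. Loxl4, a lysyl oxidase with scavenger receptor domains, lies on chromosome 19 from 42580711 to 42601252 on the minus strand (GRCm39) and has 15 exons. It was measured at 23.5, 21.7 and 20.7 CPM in vehicle and at 5.56, 5.32 and 5.66 CPM in high glucose. The groups did not overlap, and the log2 fold change was -1.99 (SE 0.0646), a change of -74.9%. Serpinh1 lies on chromosome 7 from 98994220 to 99005076 on the minus strand and has 5 exons. It was measured at 354, 347 and 336 CPM in vehicle and at 654, 608 and 624 CPM in high glucose, again without overlap, and the log2 fold change was 0.86 (SE 0.0476). These are the values that chose the set. As these are bulk samples, fewer cells of a type and less RNA per cell cannot be told apart.

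The promoters of Loxl4 and Serpinh1 are shown because these genes lay on opposite sides in high glucose. RefSeq promoter sequences (build GRCm38.p6, 250 bases before to 50 bases after the start) were matched for 5 of the 10 genes, Loxl4, Plod1, Plod3, P4ha1 and Serpinh1. Capitals mark the motifs searched on both strands, namely the TATA box (TATAAA), the CCAAT box, the GC box (GGGCGG), the core of the hypoxia response element (ACGTG) and the heat shock words GAANNTTC and TTCNNGAA. None of the matches overlapped another in these promoters. The Loxl4 promoter (chr19:42612757-42613056, minus strand) was 75.0% G and C with 32 CpG pairs and held 3 GC boxes, at -89, -56 and -15 from the start.
Loxl4 promoter: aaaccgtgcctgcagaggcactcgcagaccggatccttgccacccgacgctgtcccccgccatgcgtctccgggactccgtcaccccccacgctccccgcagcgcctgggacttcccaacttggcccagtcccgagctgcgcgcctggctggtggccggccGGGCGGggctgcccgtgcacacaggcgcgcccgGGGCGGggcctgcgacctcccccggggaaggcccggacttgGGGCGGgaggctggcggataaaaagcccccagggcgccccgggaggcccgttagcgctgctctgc
The Serpinh1 promoter (chr7:99353190-99353489, minus strand) was 62.3% G and C with 16 CpG pairs and held 1 GC box at -37 and 1 ACGTG on the opposite strand at -171.
Serpinh1 promoter: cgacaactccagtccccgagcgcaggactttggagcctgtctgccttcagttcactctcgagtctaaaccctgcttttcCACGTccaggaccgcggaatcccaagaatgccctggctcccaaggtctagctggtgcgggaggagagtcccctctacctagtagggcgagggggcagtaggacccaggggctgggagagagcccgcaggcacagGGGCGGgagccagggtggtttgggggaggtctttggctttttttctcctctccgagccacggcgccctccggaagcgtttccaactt
Over all 32851 promoters the median was 52.7% G and C. The GC box occurred in 4 of the 5 matched genes and in 35.7% of all promoters, and ACGTG in 3 of the 5 (Plod3, Serpinh1 and P4ha1) and in 19.6% of all. A heat shock word occurred in Plod1 only among the 5, as GAANNTTC, which 7.9% of all promoters hold. TTCNNGAA, held by 8.5% of all, was not in these windows. TATAAA was in Plod1 and P4ha1 (13.6% of all promoters) and CCAAT in Plod3 (37.4%).

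Among the other lysyl oxidases, Loxl1, which acts mainly on elastic fibres, was at 164, 168 and 182 CPM in vehicle and at 208, 209.5 and 184 CPM in high glucose, a log2 fold change of 0.23 (SE 0.0574). Loxl3 was at 89.0, 84.7 and 90.7 CPM in vehicle and at 99.1, 101 and 94.4 CPM in high glucose, 0.16 on the log2 scale (SE 0.0563). In both genes every high glucose library lay above every vehicle library, by a narrow margin. Lox and Loxl2 overlapped between the groups, with log2 fold changes of -0.15 and -0.11. Plod1, Plod2, Plod3 and P4ha1 overlapped as well, and their log2 fold changes lay between -0.07 and -0.00. In all, 3 genes had all high glucose libraries above vehicle, as had 16.3% of all 15074 genes tested, and Loxl4 alone had all below, as had 18.3% of all genes. Of 7 epithelial markers, Krt14 alone exceeded 1 CPM in every library and made up nearly all of their sum, and the other 6 were below 1 CPM in each library. The sum came to 9.20 to 9.71 CPM in high glucose against 27.8 to 28.9 CPM in vehicle, to 14.7 to 20.5 CPM in the inhibitor pair and to 11.4 to 12.6 CPM in the mimic pair. Whether epithelial RNA had any part in the Loxl4 values was not tested.

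Most of the enzymes stood far lower in the transfected groups than in the untransfected cells. Both negative controls were in high glucose and received the reagent with a control oligonucleotide, and they are set beside the same 3 high glucose libraries, which also served the choice of the set, so these values are descriptions. Loxl3 showed the widest gap. It was at 7.80, 8.27 and 8.25 CPM in the mimic control and at 12.9, 13.1 and 14.1 CPM in the inhibitor control, against 94.4 to 101 CPM in high glucose. Its log2 fold changes were -3.60 (SE 0.0680) and -2.88 (SE 0.0639).

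Lox, the enzyme that gives the family its name, separated the controls. It was at 32.6, 29.7 and 30.9 CPM in the mimic control, below high glucose (109, 115 and 135 CPM) by -1.94 on the log2 scale. In the inhibitor control it was at 126, 125 and 124 CPM, within the range of high glucose. Loxl1 was at 65.1, 65.1 and 61.2 CPM in the mimic control and at 44.9, 39.6 and 39.2 CPM in the inhibitor control, log2 fold changes of -1.65 and -2.28. Loxl2, which also crosslinks basement membrane collagen IV, was at 63.6, 72.0 and 68.3 CPM in high glucose. It was at 23.3, 22.2 and 24.7 CPM in the mimic control and at 18.5, 22.6 and 22.1 CPM in the inhibitor control, log2 fold changes of -1.54 and -1.69. Loxl4 went the other way, at 12.5, 12.8 and 13.6 CPM in the mimic control and at 16.3, 16.0 and 16.1 CPM in the inhibitor control, which is 1.23 and 1.55 above high glucose on the log2 scale (0.69 and 1.04 on log2(FPKM + 1)) and still below every vehicle library.

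The lysyl hydroxylases were lower in both controls than in high glucose. Plod1, which hydroxylates helical lysines, went from 126, 135 and 125 CPM in high glucose to 46.6, 47.9 and 48.8 CPM in the mimic control and to 69.9, 75.0 and 73.9 CPM in the inhibitor control. The log2 fold changes of Plod1 were -1.43 and -0.82. Plod2, the telopeptide lysyl hydroxylase, was at 87.0, 86.8 and 101 CPM in high glucose, at 29.8, 31.3 and 30.4 CPM in the mimic control (-1.58) and at 68.8, 82.4 and 83.3 CPM in the inhibitor control (-0.23). The gap to high glucose was thus wide in the mimic control and narrow in the inhibitor control. Plod3, which also carries glycosyltransferase activity, was at 136, 139 and 122 CPM in high glucose, at 62.4, 61.0 and 64.1 CPM in the mimic control (-1.08) and at 48.9, 45.5 and 44.5 CPM in the inhibitor control (-1.51).

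P4ha1, the catalytic subunit of the main prolyl hydroxylase, was at 379, 389 and 406 CPM in high glucose. It was at 195, 199 and 202 CPM in the mimic control and at 276, 317 and 308 CPM in the inhibitor control, log2 fold changes of -0.98 and -0.38. Serpinh1 lay nearer to high glucose: it was at 559.7, 549 and 555 CPM in the mimic control and at 766, 762 and 742 CPM in the inhibitor control, log2 fold changes of -0.18 (-0.35 on log2(FPKM + 1)) and 0.27. Every transfected library thus kept Serpinh1 above every vehicle library.

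Against high glucose, 1 gene had all mimic control libraries above and 9 had all below, and of all genes tested 39.8% lay above and 40.6% below. For the inhibitor control, 2 genes lay above, 7 below and Lox overlapped, with 40.7% and 40% of all genes. The median log2 fold change of the 10 genes was -1.48 in the mimic control and -0.60 in the inhibitor control, and the medians of all genes were 0.01 and 0.04. Over both pairs, 7 genes (Loxl1, Loxl2, Loxl3, Plod1, Plod2, Plod3 and P4ha1) had all 12 transfected libraries below all 6 untransfected ones, as had 25.3% of all genes. None of the 10 had all 12 above, as had 22.4% of all genes. Of the fibroblast markers, 10 in number, the sum came to 10602 to 12113 CPM in the untransfected libraries, 2439 to 2614 CPM in the inhibitor pair and 1054 to 1098 CPM in the mimic pair, with Lum and Tcf21 near 0 throughout. Most of the sum was Col3a1, at a mean of 9395 CPM in high glucose, and not all markers followed it. From high glucose to the inhibitor control, Thy1 went from a mean of 0.824 to 1.04 CPM and Pdgfrb from 32.7 to 27.9 CPM. Postn went from 0.431 to 1.92 CPM. In the mimic control the means of Thy1, Pdgfrb and Postn were 0.979, 4.82 and 0.300 CPM. Pdgfra went from a mean of 77.9 CPM in high glucose to 12.2 CPM in the inhibitor control and 4.40 CPM in the mimic control. Col1a1, Col1a2 and Col3a1 of that list are also among the collagen chains counted here, and Postn among the partners. Their part in these values was not tested, and transfection cannot be told apart from anything else that differed between these sets of libraries.

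**Figure D2:**
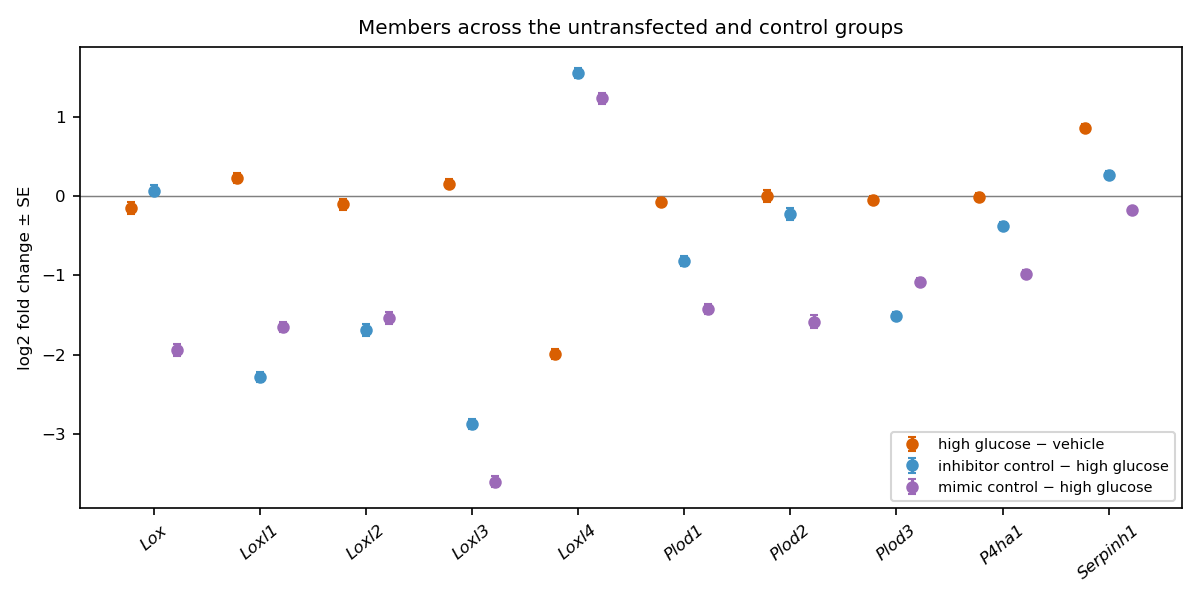
Log2 fold changes with their SE for the 10 genes in high glucose against vehicle, and in each negative control against the same high glucose libraries. Loxl4 lies at -1.99 in high glucose and at 1.23 and 1.55 in the controls, while Loxl3 reaches -3.60 and -2.88 in the controls.

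The mimic was compared with its own control to ask what added miR-200a-3p did in high glucose, with libraries that the selection rule did not use, although earlier results of these data were known when the set was proposed. With the mimic, 3 of 5 lysyl oxidases and 2 of 3 lysyl hydroxylases fell, and Plod2 rose. Of the 10 genes, 6 were called lower (Loxl1, Loxl2, Loxl4, Plod1, Plod3 and Serpinh1), 1 higher (Plod2), and 3 were not called at an adjusted p of 0.05. Of all genes tested, 18% were called lower and 15.8% higher. The median of the 10 genes was -0.17 on the log2 scale and that of all genes 0.00. Of the genes called, 46.7% were higher, and 61.3% when log2(FPKM + 1) was tested with limma. On that scale the genes split into 3 higher (Plod2, Lox and P4ha1) and 3 lower (Loxl2, Loxl4 and Plod3). Without mimic replicate 2, 5 genes were called lower and 1 higher.

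Loxl4 had the largest change of the set. It was at 12.5, 12.8 and 13.6 CPM in the mimic control and at 8.98, 8.75 and 9.26 CPM with the mimic, without overlap. The log2 fold change was -0.53 (SE 0.0632, adjusted p = 1.01e-05), a fall from 12.9 ± 0.569 to 8.99 ± 0.256 CPM (SD, n = 3). Without mimic replicate 2 it was -0.51 (adjusted p = 4.62e-05). Its UTR holds none of the seed words.

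Loxl2 went from 23.3, 22.2 and 24.7 CPM in the mimic control to 16.9, 18.8 and 19.7 CPM with the mimic, all below, and fell by 0.34 (SE 0.0775, adjusted p = 0.00245). Loxl1 went from 65.1, 65.1 and 61.2 CPM to 57.7, 53.7 and 54.5 CPM, all below, and fell by 0.21 (SE 0.0605, adjusted p = 0.0132). Without mimic replicate 2 both were still called, Loxl2 at -0.37 and Loxl1 at -0.19 (adjusted p = 0.00286 and 0.0381). The Loxl1 call was lost on log2(FPKM + 1), with an adjusted p of 0.0962. Lox, with a 7mer-m8 site, was at 32.6, 29.7 and 30.9 CPM in the mimic control. With the mimic it was at 36.0, 36.3 and 33.8 CPM. All mimic libraries lay above, but the difference of 0.19 (SE 0.0789) gave an adjusted p of 0.0766, and 0.18 without mimic replicate 2. Loxl3 overlapped between the groups, with a difference of -0.04 (95% interval -0.21 to 0.13, adjusted p = 0.731).

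Among the lysyl hydroxylases, Plod3 went from 62.4, 61.0 and 64.1 CPM in the mimic control to 51.8, 50.8 and 50.2 CPM with the mimic, without overlap. It fell by 0.30 (SE 0.0510, adjusted p = 0.000273), and without mimic replicate 2 by 0.30 as well (adjusted p = 0.000789). Plod2 went from 29.8, 31.3 and 30.4 CPM to 39.7, 34.5 and 36.8 CPM, all above, and rose by 0.28 (SE 0.0815, adjusted p = 0.0131). Without mimic replicate 2 it was at 0.32 (adjusted p = 0.00695), while without mimic replicate 1 or mimic control replicate 1 the call was lost (adjusted p = 0.0757 and 0.0581). Plod1, with the 8mer site, was at 46.6, 47.9 and 48.8 CPM in the mimic control and at 39.3, 46.6 and 40.1 CPM with the mimic, so that mimic replicate 2 reached the controls and the groups touched. It fell by 0.19 (SE 0.0659, adjusted p = 0.0364), and by 0.27 without mimic replicate 2 (adjusted p = 0.0032). The Plod1 call was lost without mimic replicate 1 (adjusted p = 0.121), mimic replicate 3 (0.103), mimic control replicate 2 (0.0702) or mimic control replicate 3 (0.0931). With limma on log2(FPKM + 1) Plod1 was at -0.10 (adjusted p = 0.211). With upper quartile scaling in edgeR it was at -0.16 (adjusted p = 0.0839).

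Serpinh1, with the 7mer site, went from 559.7, 549 and 555 CPM in the mimic control to 526, 472 and 505 CPM with the mimic, all below. It fell by 0.15 (SE 0.0473, adjusted p = 0.0219). The lowest of its values was in mimic replicate 2, and without that library the difference was -0.11 and was not called (adjusted p = 0.125). Without mimic control replicate 1 or 3 the adjusted p was 0.0574 and 0.0508. The Serpinh1 fall also depended on scaling. It was -0.07 with limma on log2(FPKM + 1) (adjusted p = 0.216) and -0.12 with upper quartile scaling in edgeR (adjusted p = 0.0535). P4ha1 was at 195, 199 and 202 CPM in the mimic control and at 224, 197 and 209 CPM with the mimic, overlapping, with a difference of 0.08 (95% interval -0.03 to 0.20, adjusted p = 0.245).

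The inhibitor was compared with its control to ask what blocking miR-200a-3p did. The mature microRNA was not measured in the data used here, so whether it was present or was blocked cannot be told. None of the 10 genes was called, and in each the libraries of the groups overlapped. edgeR called 0 of 15074 genes, 0% in either direction, and 447 genes (2.97%) had an unadjusted p under 0.05. DESeq2 called 0, with 304 genes at an unadjusted p under 0.05, and limma on log2(FPKM + 1) called 0, with 674. In the set, edgeR put Loxl2 alone under that unadjusted limit. It was at 18.5, 22.6 and 22.1 CPM in the inhibitor control and at 18.1, 18.6 and 19.8 CPM with the inhibitor, a difference of -0.16 (95% interval -0.33 to 0.01, adjusted p = 1). Lox had the largest difference upward, from 126, 125 and 124 CPM to 142, 124 and 140 CPM, at 0.11 (95% interval -0.04 to 0.27). Loxl4, at 16.3, 16.0 and 16.1 CPM in the control and 14.9, 16.0 and 14.6 CPM with the inhibitor, differed by -0.09 (95% interval -0.22 to 0.04).

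The remaining genes differed by less. Loxl1 was at 39.6, 39.4 and 39.7 CPM with the inhibitor and Loxl3 at 13.2, 13.3 and 14.4 CPM. Plod1 was at 66.9, 72.2 and 73.7 CPM, Plod2 at 76.6, 71.9 and 82.5 CPM and Plod3 at 44.5, 43.0 and 45.0 CPM. P4ha1 was at 289, 295 and 286 CPM and Serpinh1 at 727, 724 and 786 CPM. Their differences from the inhibitor control lay between -0.07 and 0.03 on the log2 scale, and all adjusted p were 1. The intervals of these genes reached from -0.20 to 0.18. For Loxl4, the mimic change of -0.53 lay outside its own inhibitor interval of -0.22 to 0.04. For Loxl2, the mimic change of -0.34 lay close to the lower end of its own inhibitor interval, -0.33.

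Whether the mimic and the inhibitor shifted a gene differently was tested directly, as the mimic effect minus the inhibitor effect, and Loxl4 and Plod3 were called, both lower. Loxl4 differed by -0.44 (SE 0.0870, adjusted p = 0.00384) and by -0.42 without mimic replicate 2 (adjusted p = 0.00963). Plod3 differed by -0.23 (SE 0.0725, adjusted p = 0.0445), a call that was lost without mimic replicate 2 (adjusted p = 0.0705) and without other single libraries: inhibitor replicate 1, 2 or 3 (0.0843, 0.0572 and 0.0967), inhibitor control replicate 2 or 3 (0.0994 and 0.103), mimic replicate 3 (0.068) and mimic control replicate 1, 2 or 3 (0.0743, 0.0534 and 0.102). Plod2 differed by 0.30 (SE 0.111, adjusted p = 0.081) and was called higher without mimic replicate 2 (0.34, adjusted p = 0.0473) and without inhibitor control replicate 1 (0.38, adjusted p = 0.0205). The other 7 genes had differences of -0.18 to 0.13 and adjusted p of 0.225 to 0.707, so for Loxl1, Loxl2, Plod1 and Serpinh1 a mimic effect that differs from the inhibitor effect was not shown. Of all genes tested, 8.59% were called lower and 4.63% higher. Of the genes called, 35.0% were higher, and 47.2% with upper quartile scaling and 49.5% on log2(FPKM + 1).

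**Figure D3:**
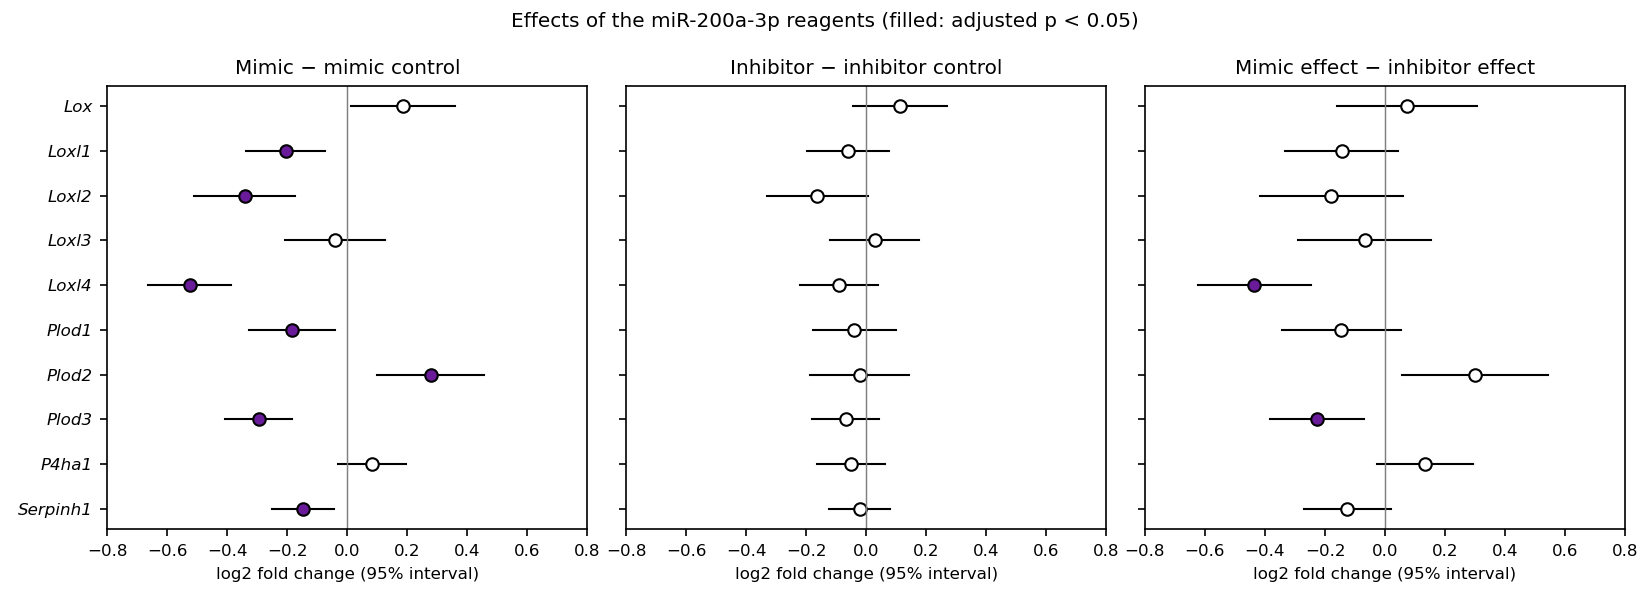
Log2 fold changes of the 10 genes with 95% intervals for the mimic, the inhibitor and the difference of their effects; filled points passed an adjusted p of 0.05. Loxl4 is at -0.53 with the mimic and at -0.09 with the inhibitor, and no inhibitor point is filled.

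The negative controls lay further from each other than the mimic lay from its control for all of the set except Loxl2 and Loxl4. Lox was higher in the inhibitor control, at 125 ± 0.711 CPM against 31.1 ± 1.47 CPM in the mimic control (SD, n = 3), which is 2.01 on the log2 scale (SE 0.0774, adjusted p = 1.49e-14). Plod2 was higher by 1.36 (adjusted p = 6.74e-12), at 78.2 ± 8.13 against 30.5 ± 0.775 CPM. Loxl3 (0.72), Plod1 (0.61), P4ha1 (0.60), Serpinh1 (0.45) and Loxl4 (0.32) were higher as well, with adjusted p of 8.61e-05 or less. Loxl1 and Plod3 were lower, by -0.63 and -0.43 (adjusted p = 1.26e-08 and 2.07e-07). The counts were thus 7 higher and 2 lower, against 38.5% and 35.7% of all genes tested. The median of the set was 0.52, and the median of all genes was 0.04 (0.15 with upper quartile scaling). Over the alternatives the difference of Loxl4, the smallest among the 9, lay between 0.28 and 0.44. Loxl2 was not called, at -0.15 (adjusted p = 0.0815), but it was called lower without inhibitor control replicate 2 or 3 (adjusted p = 0.0277 and 0.0401), mimic replicate 2 (0.0424) or mimic control replicate 2 (0.0356). The control oligonucleotides and anything else shared by a pair of groups cannot be told apart here.

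Genes that work with the set were counted in 6 lists with the mimic, against 18% of all genes called lower and 15.8% called higher. Of 13 tested genes of prolyl hydroxylation and collagen folding, 7 were called lower and 2 higher, the same counts without mimic replicate 2, with a median of -0.16. Fkbp10, a prolyl isomerase of the endoplasmic reticulum that assists telopeptide lysyl hydroxylation, fell by 0.43 (adjusted p = 4.14e-06), from 66.0 ± 1.94 to 49.0 ± 2.02 CPM. P3h1, the prolyl 3-hydroxylase of collagen I, fell by 0.38 (adjusted p = 4.44e-05), and Tmem38b, a cation channel of the endoplasmic reticulum, rose by 0.31 (adjusted p = 0.00142). Colgalt2 was not tested for low counts.

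Of 12 tested genes of collagen export and propeptide removal, 4 were called lower and 1 higher, the same counts without mimic replicate 2, with a median of -0.09. Creb3l1, a transcription factor for secretory genes, fell by 0.35 (adjusted p = 0.00215), Adamts14, a procollagen N-propeptidase, fell by 0.34 (adjusted p = 0.0013), and Mia2, of the export machinery, rose by 0.30 (adjusted p = 0.000867). Tll1, Tll2 and Adamts3 were not tested. Of 8 partners of the lysyl oxidases and copper suppliers, 1 was called: fibronectin, Fn1, fell by 0.36 (adjusted p = 6.75e-05), from 6581 ± 169 to 5129 ± 144 CPM. The median of this list was 0.05.

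Of 9 tested collagen chains that the enzymes act on, 6 were called lower and none higher, 5 without mimic replicate 2, with a median of -0.25. The basement membrane chains Col4a2 and Col4a1 fell by 0.54 and 0.36 (adjusted p = 3.49e-06 and 0.000277), and the fibrillar Col5a1 fell by 0.42 (adjusted p = 2.83e-06). Col4a2 went from 292 ± 12.4 to 201 ± 2.33 CPM. Col2a1 and Eln were not tested for low counts.

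Several genes of the set, among them genes that rose and genes that fell with the mimic, are known as hypoxia-inducible, and Serpinh1 as a heat shock gene. Genes of those responses were therefore counted too. Which of the 10 genes respond to hypoxia in these cells was not tested. Of 11 tested hypoxia-inducible genes, 4 were called higher and 2 lower with the mimic, 5 and 3 without mimic replicate 2, with a median of 0.11. Ankrd37 rose by 0.76 (adjusted p = 0.00359), from 0.843 ± 0.155 to 1.43 ± 0.338 CPM. Pdk1, a kinase that inhibits mitochondrial pyruvate dehydrogenase, rose by 0.69 (adjusted p = 2.83e-06), and the mitophagy gene Bnip3 rose by 0.52 (adjusted p = 0.000161). Ca9 was not tested. Of 10 heat shock factor targets, 4 were called lower and none higher, 3 lower and 1 higher without mimic replicate 2, with a median of -0.14. The cochaperone Bag3 fell by 0.41 (adjusted p = 6.34e-05), Hspb1 fell by 0.31 (adjusted p = 0.00573) and Hspa1b fell by 0.21 (adjusted p = 0.0458), the last not called without mimic replicate 2 (adjusted p = 0.0545). All medians compare with 0.00 for all genes.

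**Figure D4:**
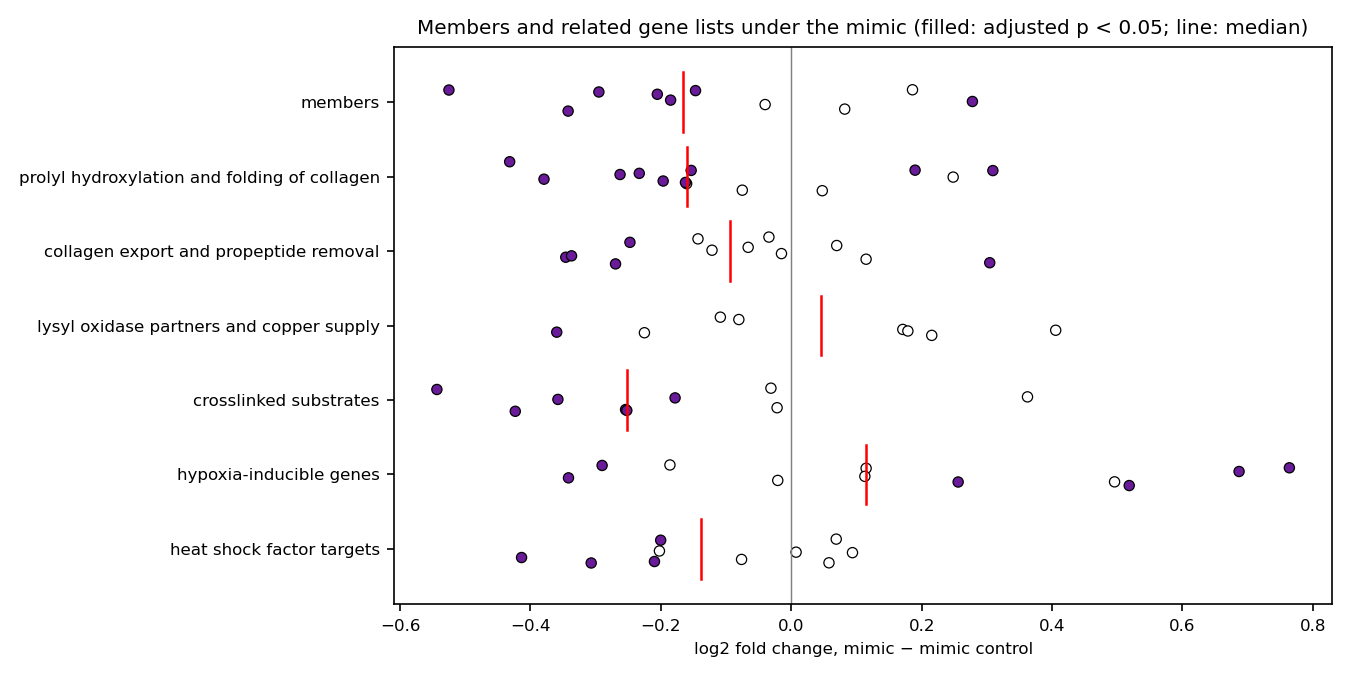
Log2 fold change with the mimic for the 10 genes and for each list; every point is a gene, filled points passed an adjusted p of 0.05 and red lines are medians. The collagen chains have the lowest median (-0.25) and the hypoxia-inducible genes the highest (0.11).

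With the inhibitor, 0 genes of the 6 lists were called by edgeR, as for all genes. For the difference of the mimic and inhibitor effects, where 8.59% of all genes were called lower and 4.63% higher, the folding list had 4 lower, the export list 3 lower and 1 higher, the partners 1 lower, the collagen chains 3 lower, the hypoxia-inducible genes 3 higher and 1 lower, and the heat shock targets 3 lower. Without mimic replicate 2 the folding list had 2 lower, the export list 1 lower and 1 higher, the hypoxia-inducible genes 2 higher and 1 lower, and the heat shock targets 2 lower. Between the negative controls, where 38.5% of all genes were called higher in the inhibitor control and 35.7% lower, 8 folding genes were higher in the inhibitor control and 3 lower, with 8 and 2 in the export list, 4 and 4 among the partners, 7 and 1 among the collagen chains, 9 and 2 among the hypoxia-inducible genes, and 0 and 9 among the heat shock targets.

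In high glucose against vehicle, as a description, the counts of the lists stand beside 16.3% of all genes with the 3 libraries all above and 18.3% with all below. The collagen chains had 1 gene with all libraries above (Col1a2, 0.51) and 2 with all below, and the largest difference was in Col11a1 (-0.62). The folding list had 3 above and 4 below, with P3h2 at -0.88 and P3h3 at 0.45. The export list had 1 above and 2 below (Pcolce -0.31, Kdelr2 0.27), the partners 1 above (Emilin1, 0.34) and 2 below, and the hypoxia-inducible genes 1 above and 2 below, among the latter Egln1 (-0.25). Fbln5, at 0.35, and Adm, at -0.25, overlapped between the groups. The heat shock targets had 5 above and 1 below, with Hspa8 at 0.31 and Hspa1a, whose groups overlapped, at -0.31. The list medians lay between -0.11 and 0.11.

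The counts against high glucose stand beside large shares of all genes, 39.8% all above and 40.6% all below in the mimic control and 40.7% and 40% in the inhibitor control. In the negative controls all 9 collagen chains lay below high glucose, with medians of -1.56 in the mimic control and -0.98 in the inhibitor control. Col5a3 was at -4.65 and -3.23 and Col3a1 at -3.92 and -2.56 in these comparisons, which share the high glucose libraries. The folding list had 4 genes above and 9 below in each control, with P4ha3 at -3.55 and P3h4 at -2.72 in the mimic control, and P3h4 at -2.25 and Fkbp10 at -1.76 in the inhibitor control. The export list had 1 above and 9 below in the mimic control (Pcolce -2.82, Bmp1 -2.32) and 4 above and 6 below in the inhibitor control (Bmp1 -1.74, Mia2 1.70). The partners had 1 above and 4 below (Emilin1 -2.20, Efemp2 -1.21) and 3 above and 5 below (Postn 2.13, Efemp2 -1.51). The hypoxia-inducible genes had 4 above and 7 below in the mimic control (Ankrd37 -3.31, Ndrg1 3.11) and 7 above and 2 below in the inhibitor control (Adm 2.98, Ndrg1 2.43). The heat shock targets had 6 above and 4 below (Hspb1 -2.00, Hspe1 1.89) and 4 above and 5 below (Hspa1b -2.09, Hspb1 -2.09).

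Levels were compared by Pearson's r of log2 CPM over the 18 libraries, as a description over libraries of the 3 sets. Among 9435 genes with a mean of at least 5 CPM, those most like Loxl4 and Serpinh1 are named. For Loxl4 these were Krt14, a basal keratin (r = 0.903), Tlcd3a (0.899), the retinol dehydrogenase gene Dhrs9 (0.895) and Tinagl1, a matrix protein gene (0.886). Dhrs9 was at a mean of 99.3 CPM in vehicle, 32.0 CPM in high glucose, 66.1 CPM in the inhibitor control and 38.4 CPM in the mimic control. For Serpinh1 these were Cryz (0.968), Ankfy1 (0.963), the ethanolamine kinase gene Etnk1 (0.928) and Tmed9, a cargo receptor of the early secretory pathway (0.923). Tmed9 was at a mean of 237 CPM in vehicle, 316 CPM in high glucose, 431 CPM in the inhibitor control and 363 CPM in the mimic control.

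Overlapping annotation bears on some of these values, because the strand setting of the counting is not given in the sources used here. In GRCm39, a coding gene on the opposite strand overlaps Loxl3 (Htra2, 1947 bases), Plod3 (Znhit1, 1049 bases), Loxl2 (R3hcc1, 943 bases) and Loxl4 (R3hcc1l, 78 bases). Annotated genes that are not coding, also on the opposite strand, overlap Lox (Gm41724, 1444 bases), Plod2 (B430319G15Rik, 804 bases), Loxl1 (Gm57034, 25482 bases) and Loxl2 (Gm27177, 74527 bases, and Gm37513, 2268 bases). Overlaps were measured over whole gene spans, introns included. Gm57034 and Gm37513 were not in the count table, and Gm27177 did not pass the low-count filter. Reads in these stretches could not be told apart if strand was ignored. MicroRNA genes on the same strand, not in the count table, overlap Loxl2 (Mir6950, 73 bases), Loxl3 (Mir7040, 63 bases) and Plod3 (Mir702, 109 bases). No annotated gene overlaps Plod1, P4ha1 or Serpinh1.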

How the data were processed

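Stranded mRNA libraries gave 150 nt paired reads, per the labels' protocols. FASTX-Toolkit 0.0.13 removed adaptors and poor bases, and reads were also left out for over 2 N bases or under 16 nt. HISAT2 then mapped to GRCm39, tolerating 4 mismatches. The authors deposited raw counts of uniquely mapped reads per gene, and FPKM values computed from them, per the labels' protocols. DESeq2 is named, with no role, in the submitters' processing notes. The counting program, annotation and strand setting are not given in the sources used here.

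Counts were tested with edgeR 4.0.16 (R 4.3.3): filterByExpr by group (minimum count 10, minimum total 15) kept 15074 of 29112 genes, TMM scaled the libraries, and the quasi-likelihood fit used all 18 libraries with a coefficient for each group, leaving 12 residual degrees of freedom. A gene was called at a Benjamini-Hochberg adjusted p, over all genes tested, of under 0.05. The fit was tested on simulated data. A count of 0 allows up to 3 reads, 0.0791 to 0.0891 CPM by library, for counting error only. Between replicates, counts differed by 4.37 to 26.1 chi-square units per degree of freedom, so none was a repeat of another.

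Alternatives were DESeq2 1.42.0, its size factors, upper quartile scaling, no filter, the compared groups only, limma 3.58.1 on log2(FPKM + 1) and log2(FPKM + 0.1), a replicate block and leaving out each library. Of the gene identifiers, 28849 matched GENCODE M39. The 10 genes and the lists were chosen with earlier results of these data known. All 10 genes are named. From each of the 6 lists up to 3 called genes with the largest change are named for the mimic, and the 2 with the largest change in descriptions, and 4 genes most like Loxl4 and Serpinh1. Marker sums are unscaled CPM.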

Additional observations from a re-analysis of the deposited data

Results flagged for a closer look

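The effect of the mimic on Loxl4 differed from that of the inhibitor, by -0.44 on the log2 scale (adjusted p = 0.00384). All 3 mimic libraries lay below all 3 of the mimic control, while the inhibitor libraries overlapped their control. For Plod3 the difference was -0.23 (adjusted p = 0.0445), with the mimic libraries below their control and the inhibitor libraries overlapping theirs. Without mimic replicate 2, Loxl4 was still called (adjusted p = 0.00963) and Plod3 was not (adjusted p = 0.0705). The Plod3 call held under only 5 of 20 alternatives.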

How the results depend on the processing

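The replicate numbers did not pair the mimic or the inhibitor libraries with those of their controls. Deviations of same-numbered libraries correlated at -0.03 to 0.06 for the mimic and its control. For the inhibitor and its control they correlated at -0.12 to -0.00. Most of these libraries did not correlate best with their own number. Between the controls the 3 values were 0.12, -0.18 and 0.14, between the inhibitor control and high glucose 0.33, -0.04 and 0.24, with replicates 1 and 3 correlating best with their own number in both, between the mimic control and high glucose -0.04 to 0.04, and between high glucose and vehicle -0.61 to -0.12. With a replicate block the 7 mimic calls of the set remained and 1 gene rather than 2 was called for the difference of the mimic and inhibitor effects, since Plod3 reached an adjusted p of 0.0503. That count was also 1 with upper quartile scaling and 1 on log2(FPKM + 1) and log2(FPKM + 0.1), and it ranged from 1 to 3 when single libraries were left out. Loxl4 was called there under all 20 alternatives (adjusted p = 0.0014 to 0.018) and Plod3 under 5 of them.

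With the mimic, the count was 5 to 7, and Loxl2, Loxl4 and Plod3 were called under all 14 alternatives. Plod1 lost its call in 8, Serpinh1 in 7, Loxl1 in 2 and Plod2 in 2. Lox was called higher under 5 and P4ha1 under 2. No called gene changed sign, and Loxl3, never called, lay between -0.15 and 0.02. The called genes were 55.1% higher over all genes with upper quartile scaling and 63.5% on log2(FPKM + 0.1), and for the difference of effects 46.7% without a filter and 53.1% on log2(FPKM + 0.1). The inhibitor count of the set was 0 throughout, although 26 genes were called without a filter and 1 with the compared groups only. Between the controls the count was 9 or 10. On log2(FPKM + 1), a scale that shrinks low genes, Loxl4 was at -1.43 in high glucose against vehicle. Against high glucose it was at 0.69 rather than 1.23 in the mimic control and at 1.04 rather than 1.55 in the inhibitor control. Serpinh1 is not a low gene, and its difference in the mimic control was larger on FPKM. It was at -0.35 rather than -0.18, both on log2(FPKM + 1) and on log2(FPKM + 0.1). The FPKM values carry no TMM scaling, and the part of scaling in this shift was not tested. Of the seed matches, 1 of 3 was an 8mer. The lists without mimic replicate 2 were added after seeing the data. Depth limited Loxl4 most, with 184 to 209 reads per library in high glucose.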
